A study of Sus scrofa with 30 samples.

Results

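The translation initiation factors (eIF) and elongation factors (eEF) are the proteins that bring an mRNA, a ribosome and charged tRNAs together to make protein. Their transcripts were followed in the cerebral cortex of pigs, on 30 porcine arrays made by Affymetrix. The members are the genes whose single symbol in the platform's probe table starts with EIF or EEF, which gave 42 genes of the 6765 with a single symbol on the array. Each gene is represented by a single probe set, the one with the highest mean log2 intensity over the 30 arrays, and these were taken from 65 probe sets. Of the 42, 26 had 1 probe set. Because the rule goes by name, it also takes in EEF1E1, a scaffold of the multi-tRNA synthetase complex, and EEF1AKMT1, a lysine methyltransferase that acts on eEF1A. The EEF1A1 member is an AFFX control-type probe set against the middle of the porcine eEF1A transcript.

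All animals were prepubertal farm pigs of a Swedish triple breed, of both sexes and 12 to 14 weeks old, under pentobarbital anaesthesia, and each of the 10 groups held 3 biological replicates per the labels. In 3 groups, MB30, MB60 and MB180, ventricular fibrillation ran for 12 min, closed-chest compressions for 8 min, and cortex was taken 30, 60 or 180 min after restoration of spontaneous circulation (ROSC). These animals were infused with methylene blue, a dye that takes up and gives off electrons and that blocks guanylate cyclase and nitric oxide synthases, at 7.5 mg/kg/h in saline at 55 ml/kg/h. The infusion ran from 1 min after the start of compressions to 50 min after ROSC, so that MB30 was sampled during it. The 3 saline groups, SAL30, SAL60 and SAL180, had the same arrest, compressions and saline without the dye. The last 4 groups had arrest without resuscitation, with the brain removed at once (CA0, the control) or after 5, 20 or 30 min (CA5, CA20, CA30). Every animal of all groups, the controls included, was fibrillated and was given potassium chloride before brain removal, so there is no cortex from an animal without arrest.

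Translation starts when eIF2, carrying the initiator tRNA, joins the small ribosomal subunit together with eIF1, eIF1A and eIF3. The cap complex (eIF4E, the scaffold eIF4G and the helicase eIF4A) then brings the mRNA, and eIF5B joins the large subunit once the start codon is found. eIF2 has to be recharged by eIF2B after each round, and phosphorylation of its alpha subunit by stress kinases blocks this step; in the reperfused brain that phosphorylation is the known route to a general arrest of protein synthesis. An array measures the mRNA of these factors, not their phosphorylation or the rate of protein synthesis.

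Of the markers listed for cells of the cortex, 7 of 9 neuronal, 5 of 6 astrocyte and 4 of 6 oligodendrocyte markers were on the array. All of them lay above the low-intensity filter, as did those listed for microglia, vessels, meninges and red blood cells. CA20 replicate 2 stood apart with 11960 intensity units of the choroid plexus transcript TTR, against at most 193.5 on every other array. SAL30 replicate 1 had the highest summed intensity of the 3 microglial markers (2253, against at most 1312 on the other arrays). Median intensity was 97.65 to 108.5 on the 9 MB arrays, 87.06 to 104.8 on the 9 SAL arrays and 87.99 to 97.59 on the 12 arrest arrays. No pair of arrays correlated above 0.9837, so none were merged.

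All 42 members passed the filter, a mean log2(intensity + 16) at or above the 30th percentile. Differences below are log2 differences of intensity + 16 from a single limma fit of all 30 arrays, with standard errors (SE), and a call is an adjusted p under 0.05 (Benjamini-Hochberg over 16800 probe sets within a comparison, two-sided). Because the tissue is bulk cortex, fewer cells of a type and less RNA per cell cannot be told apart. Levels of different genes are not set against each other, since each probe set has its own affinity.

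Reperfused cortex with and without methylene blue was compared by MB against SAL. The arms also differed in some measures of the arrays themselves, given below, and the design cannot tell these apart from the dye. Averaged over the 3 times, 16 of 42 members passed, which is 38.1% of the members beside 25.2% of all probe sets. Of these members 5 were higher and 11 lower, beside 13.8% of all probe sets higher and 11.4% lower. Each member is the brightest probe set of its gene while all probe sets include dimmer ones, so these shares are not like for like. Lower in MB cortex were the scaffolds EIF4G1 and EIF4G3, the cap-binding EIF4E2, the eIF3 subunits EIF3B, EIF3D and EIF3K, the subunit-joining factor EIF5B, the eIF2B subunit EIF2B3, the eIF2 kinase EIF2AK2 and the exchange-factor subunits EEF1D and EEF1G. Higher in MB cortex were EIF2S1, EIF2B1, EIF4A3, EIF4E and EIF5A. Each of the 16 had the same sign at all 3 times, which their selection on the mean of those times favours, so it is no separate support. The median over the members was -0.06 and over all probe sets 0.02.

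The split between higher and lower depended on how arrays were scaled. Centring every array on its median instead of the authors' scaling moved the share of higher calls among all probe sets to 31%, against 54.7% in the scaling as deposited, and left 1 member higher and 15 lower. That is 38.1% of the members called, beside 28.9% of all probe sets. EIF2S1, EIF4A3, EIF4E and EIF5A then kept a positive difference without passing (adjusted p = 0.0818, 0.184, 0.138 and 0.134, limma), while EIF2B1 remained called. Quantile normalization gave 8 members higher and 10 lower (42.9% beside 25.8% of all probe sets), with 44.5% of all calls higher. No called difference of a member, by the probe set used, changed its sign in any setting that was run. Other probe sets of EIF4E2, EIF4G1, EIF5B and EIF3D pointed the other way, as given below.

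**Figure D1:**
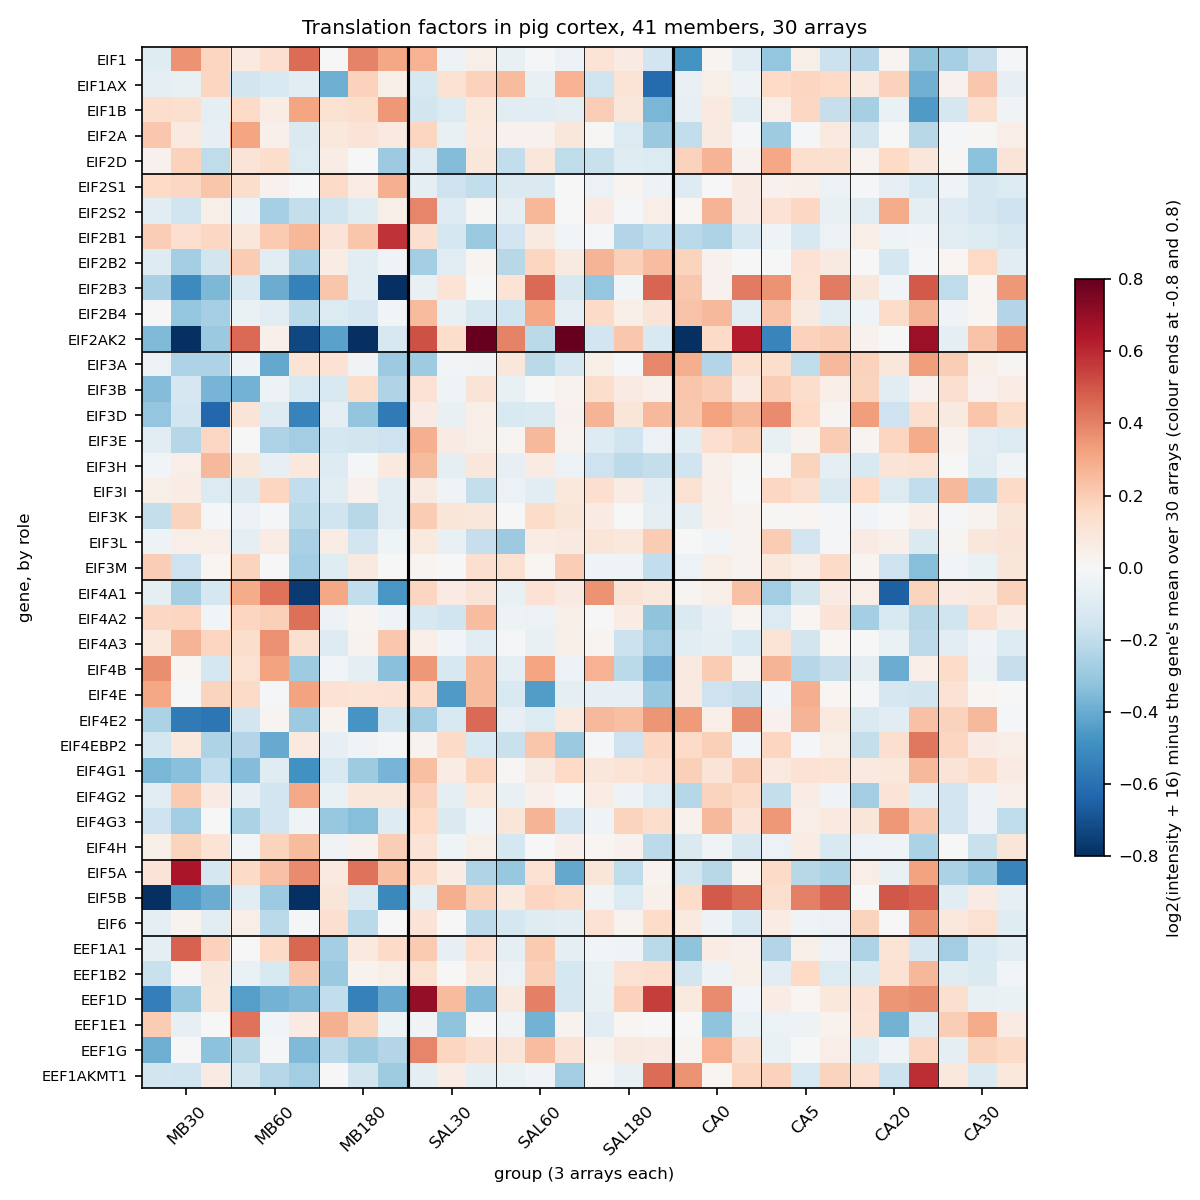
Log2(intensity + 16) of 41 members on each of the 30 arrays, as the deviation from the gene's mean over all arrays (colour scale, log2 units, ends at -0.8 and 0.8). Rows are genes, blocked by role; columns are arrays, 3 per group, with heavy lines between the MB, SAL and CA groups; EIF1AY, which spans a far wider range, is left out. The EIF4G1 row is blue, below the gene's mean, on all 9 MB arrays; EEF1D, EEF1G and EIF5B are blue on most of them.

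Of the 11 members grouped under cap recognition, 2 rose in MB cortex (EIF4E, and EIF4A3, placed here as a relative of eIF4A) and 3 fell. The share of all probe sets was 13.8% higher and 11.4% lower. Counts by role, here and below, rest on few members and were not tested against that share. EIF4G1, the main scaffold that links the cap-binding protein to the ribosome through eIF3, gave the smallest adjusted p of all members. Its intensity was 646.1, 659 and 728 in MB30, 655, 781 and 594 in MB60, and 766, 684 and 642 in MB180. In saline it was 992, 873 and 943 in SAL30, 840.1, 880.4 and 936 in SAL60, and 889.6, 900.7 and 918 in SAL180. All 9 MB arrays thus lay below all 9 SAL arrays, the highest of them, 781 in MB60 replicate 2, under the lowest of saline, 840.1 in SAL60 replicate 1.

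The 12 arrest arrays lay between 877 and 1001 for EIF4G1, also above every MB array. The mean was 684 ± 62.1 in MB, 908 ± 44.9 in SAL (SD, n = 9 each) and 915 ± 38.7 in the arrest groups (SD, n = 12). EIF4G1 fell in MB against SAL by 0.40 on the log2 scale (SE 0.06, adjusted p = 3.77e-05, limma), which is 0.756 times the saline level. Leaving out any single array kept the adjusted p at or below 0.000135. A second, dim probe set of EIF4G1, at 40.22 intensity units on average, pointed the other way without passing, at 0.55 (SE 0.28, adjusted p = 0.141) in MB against SAL and 0.54 (SE 0.22, adjusted p = 0.0889) in reperfused against arrest groups.

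The other members of the cap complex did not move with EIF4G1 as a block. EIF4G3, the second eIF4G scaffold, ranged from 1709 to 2167 with a median of 1929 in MB and from 1946 to 2628 with a median of 2319 in SAL. It fell by 0.24 (SE 0.07, adjusted p = 0.0139), with overlapping arrays. EIF4G2, a relative that lacks the eIF4E-binding part and serves cap-independent initiation, averaged 6190 ± 647 in MB and 6017 ± 393 in SAL (SD, n = 9 each), a difference of 0.04 with a 95% interval of -0.12 to 0.19.

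EIF4E, which binds the cap itself, was 441 to 558 with a median of 483 in MB and 319.7 to 532 with a median of 420.2 in SAL. It rose by 0.27 (SE 0.09, adjusted p = 0.0251), and 2 saline arrays, SAL30 replicate 2 at 319.7 and SAL60 replicate 2 at 321, were the lowest of all 18. The call ended without SAL30 replicate 2 (adjusted p = 0.0613), SAL60 replicate 2 (0.0652), SAL180 replicate 3 (0.0572), MB30 replicate 1 (0.0531) or MB60 replicate 3 (0.0541). EIF4E2, a cap-binding relative known mainly as a repressor, was 126.5 to 202 with a median of 163 in MB and 160.4 to 275 with a median of 209 in SAL. It fell by 0.36 (SE 0.10, adjusted p = 0.00966), but another probe set of EIF4E2 rose by 0.36 (SE 0.13, adjusted p = 0.0447), and one more differed by -0.42 without passing (adjusted p = 0.0562), so the direction of the gene is unsettled.

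EIF4A3, the helicase that sits in the exon junction complex rather than the cap complex, was 677 to 947 with a median of 806 in MB and 599 to 758 with a median of 719 in SAL, and rose by 0.20 (SE 0.06, adjusted p = 0.0189). Its initiation relatives did not pass: EIF4A1 differed by -0.21 (95% interval -0.48 to 0.06) and EIF4A2 by 0.16 (0.02 to 0.30, adjusted p = 0.0891). EIF4A1 spread widely within MB60, with 966, 1064 and 455 on the 3 arrays. The helicase partners EIF4B and EIF4H differed by -0.04 and 0.12, and EIF4EBP2, which holds back eIF4E, by -0.09, none of them called. For EIF4EBP2 the 2 other probe sets that were called pointed opposite ways, -0.33 (adjusted p = 0.012) and 0.37 (adjusted p = 0.0409).

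**Figure D2:**
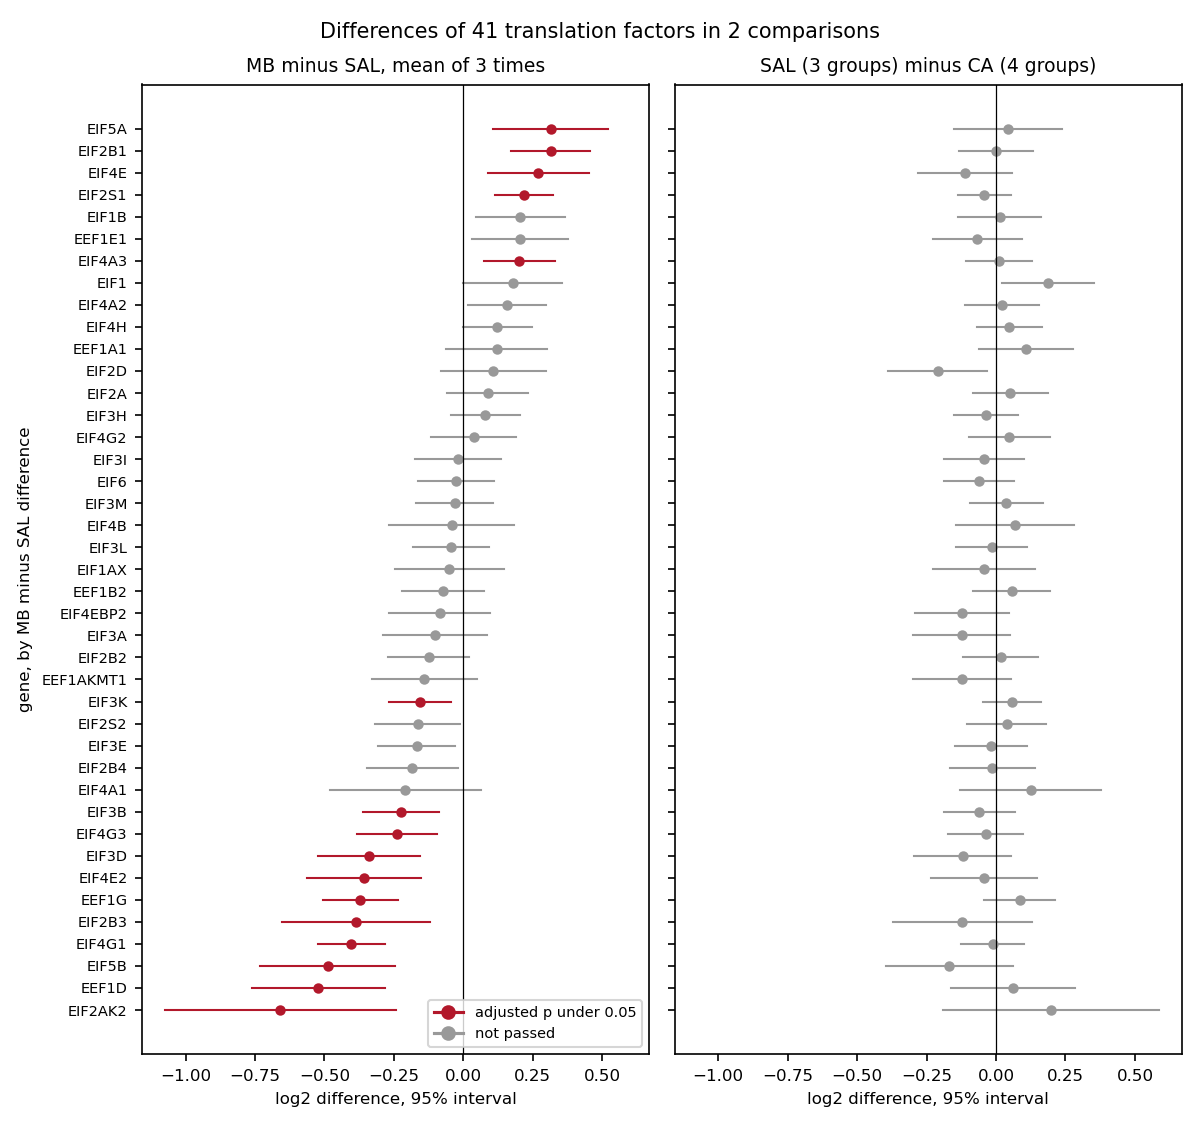
Log2 differences of 41 members with 95% intervals (x axis) for the mean MB minus SAL difference (left) and for the 3 SAL groups minus the 4 arrest groups (right), genes sorted by the left panel (y axis). Red marks an adjusted p under 0.05: 16 genes on the left and 0 on the right.

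Among eIF2 and the proteins that control it, 2 of 7 members rose and 2 fell in MB against SAL. The share of all probe sets was 13.8% higher and 11.4% lower. EIF2S1, the alpha subunit that carries the stress phosphorylation site, had 1089, 1096 and 1142 in MB30, 1078, 997 and 977 in MB60, and 1083, 1015.5 and 1189.8 in MB180. In saline it had 922, 868 and 849 in SAL30, 899, 900.4 and 971 in SAL60, and 944, 991 and 945 in SAL180. Within each time every MB array lay above every SAL array, and over all times only SAL180 replicate 2 at 991 reached into the MB range, which began at 977. Full separation of 3 arrays from 3 has an exact permutation p of 0.1, so within a time it adds little by itself. The same holds for EIF5B and EIF2AK2 below.

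EIF2S1 rose by 0.22 in the mean of 3 times (SE 0.05, adjusted p = 0.00255). It also passed at 30 min alone, at 0.33 (SE 0.09, adjusted p = 0.0307), a call that ended without SAL30 replicate 2 (0.0695) or 3 (0.0541) or without MB30 replicate 1 (0.0629), 2 (0.0675) or 3 (0.0911). EIF2S2, the beta subunit, went the other way without passing, at 1534 ± 115 in MB and 1728 ± 207 in SAL (SD, n = 9 each), a difference of -0.17 (SE 0.07, adjusted p = 0.0977). The probe sets of the gamma subunit EIF2S3 list a second symbol, so it is not among the members. The eIF2 kinases EIF2AK1, EIF2AK3 and EIF2AK4, and EIF5, EIF4EBP1, EEF1A2, EEF2 and EEF2K, were not analysed here.

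EIF2B1, the alpha subunit of the exchange factor that recharges eIF2, had 578, 553 and 565 in MB30, 536, 581 and 606 in MB60, and 540.5, 588 and 757 in MB180. Its saline values were 549, 454 and 406 in SAL30, 449, 529 and 493 in SAL60, and 499, 424 and 436 in SAL180. Only SAL30 replicate 1 exceeded the lowest MB arrays, and MB180 replicate 3 was the highest array of all. EIF2B1 rose by 0.31 (SE 0.07, adjusted p = 0.00177), and a dimmer probe set of it rose as well (0.47, SE 0.16, adjusted p = 0.0279).

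The other eIF2B subunits were not higher. EIF2B3, the gamma subunit of its catalytic part, was 202 to 434 with a median of 284 in MB and 295 to 517 with a median of 368 in SAL. It fell by 0.39 (SE 0.13, adjusted p = 0.0277), and the call ended without SAL60 replicate 2 (0.0692), SAL180 replicate 3 (0.0731), MB30 replicate 2 (0.0518), MB60 replicate 3 (0.055) or MB180 replicate 3 (0.0704). EIF2B2 and EIF2B4, the beta and delta subunits, differed by -0.13 (95% interval -0.27 to 0.02) and -0.18 (-0.35 to -0.02, adjusted p = 0.0868), and neither was called.

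EIF2AK2, the kinase PKR that phosphorylates eIF2 when it meets double-stranded RNA, had the largest fall in the mean. It had 581, 330.4 and 607 in MB30, 1027, 771 and 446 in MB60, and 552, 406 and 682 in MB180, against 1072, 825 and 1361 in SAL30, 988, 643 and 1384 in SAL60, and 671, 869 and 685 in SAL180. At 30 min every MB array lay below every SAL array, while at 60 min MB60 replicate 1 was above SAL60 replicates 1 and 2. EIF2AK2 fell by 0.66 (95% interval -1.07 to -0.24, adjusted p = 0.0173); it varied as widely in the controls, with 392, 835 and 1166 in CA0.

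**Figure D3:**
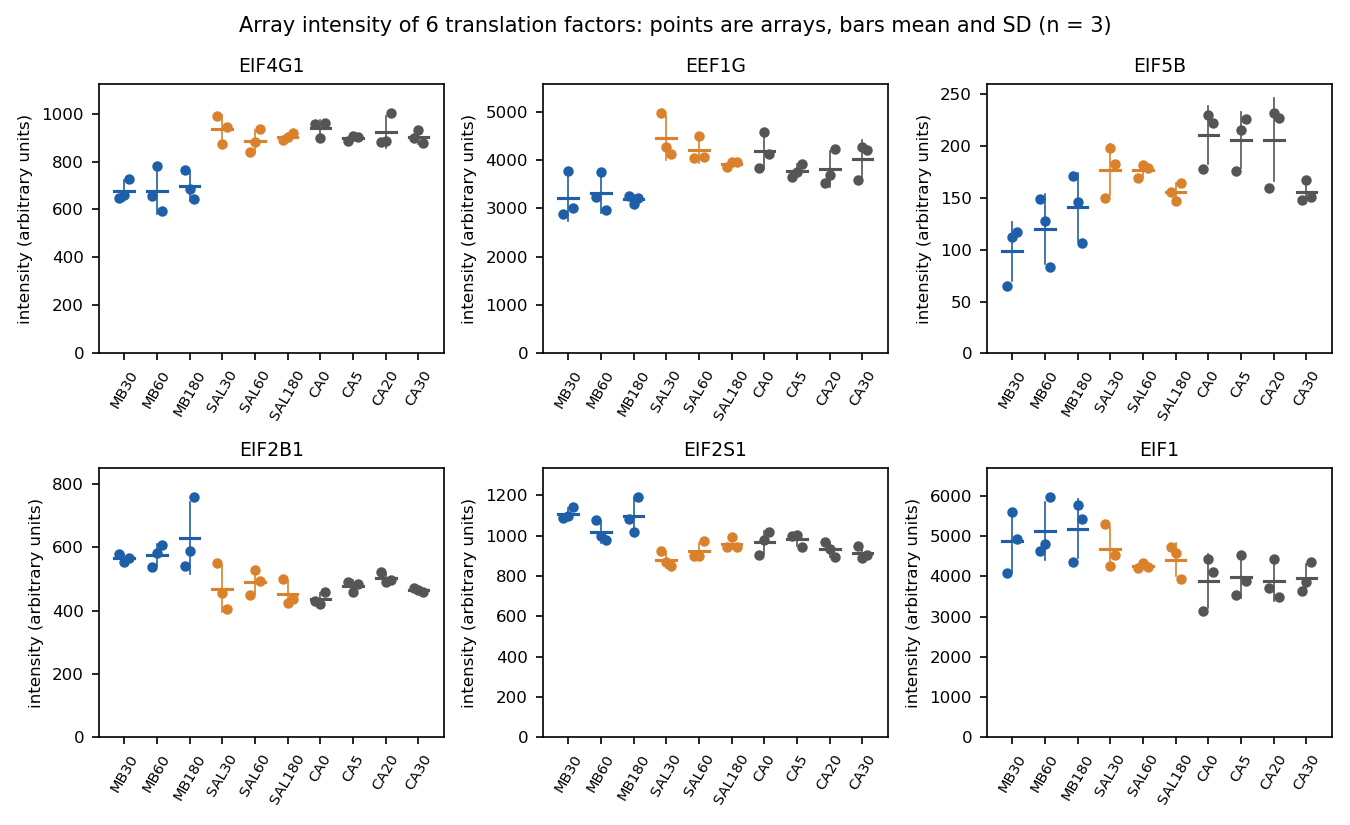
Intensity (arbitrary units, y axis from 0) of EIF4G1, EEF1G, EIF5B, EIF2B1, EIF2S1 and EIF1 in the 10 groups (x axis). Points are arrays, horizontal bars are group means and vertical bars are SD (n = 3). All 9 MB arrays of EIF4G1 lie at or below 781, under the lowest SAL array at 840.1; EIF2B1 and EIF2S1 are higher in MB.

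eIF3 is the large scaffold that holds the small ribosomal subunit. Of its 9 subunits among the members 0 rose and 3 fell, beside 13.8% of all probe sets higher and 11.4% lower. EIF3B, part of its core, was 359 to 522 with a median of 428 in MB and 452 to 522 with a median of 486 in SAL, and fell by 0.22 (SE 0.07, adjusted p = 0.0141). EIF3D, a subunit that can bind the cap of selected mRNAs, was 465 to 781 with a median of 584 in MB and 667 to 881 with a median of 754 in SAL, and fell by 0.34 (SE 0.09, adjusted p = 0.00701). The arrays of both overlapped between MB and SAL, and a dim second probe set of EIF3D did not follow (0.15, adjusted p = 0.563).

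EIF3K, a peripheral subunit, was 1541 to 2039.9 in MB and 1702 to 2070.0 in SAL, and fell by 0.16 (SE 0.05, adjusted p = 0.0339). The call ended without SAL30 replicate 1 (0.0591), SAL60 replicate 2 (0.0695) or 3 (0.0519), SAL180 replicate 1 (0.0659), MB30 replicate 1 (0.0832) or 3 (0.0502), MB60 replicate 3 (0.0716) or MB180 replicate 2 (0.0667). The other 6 subunits did not pass. EIF3A, the largest subunit, differed by -0.10 and EIF3E by -0.17 (adjusted p = 0.0651). EIF3I, EIF3L and EIF3M differed by -0.02, -0.04 and -0.03, with 95% intervals of -0.17 to 0.14, -0.18 to 0.09 and -0.17 to 0.11, and EIF3H by 0.08 (-0.05 to 0.20).

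After the start codon is found, EIF5B, the GTPase that joins the large subunit, had 65.1, 113 and 117 in MB30, 149, 127 and 82.9 in MB60, and 171, 146 and 107 in MB180. Its saline values were 149.9, 198.5 and 183 in SAL30, 169, 182 and 179 in SAL60, and 156, 147 and 164 in SAL180. Every MB array lay below every SAL array at 30 and at 60 min, and at 180 min MB180 replicate 1 was above all 3 saline arrays. EIF5B fell by 0.49 (SE 0.12, adjusted p = 0.00368), while a second probe set at about 95.1 intensity units differed by 0.19 without passing (adjusted p = 0.169).

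EIF5A, which carries the modified amino acid hypusine and helps ribosomes through difficult peptide bonds, was 1738 to 3015 with a median of 2255 in MB and 1436 to 2128 with a median of 1953 in SAL. It rose by 0.31 (SE 0.10, adjusted p = 0.0223), and the highest array was MB30 replicate 2 at 3015. The call ended without MB30 replicate 2 (adjusted p = 0.0571) or MB180 replicate 2 (0.0514). EIF6, which keeps the large subunit apart until it is mature, averaged 751 ± 61.9 in MB and 765 ± 67.1 in SAL (SD, n = 9 each), a difference of -0.03 with a 95% interval of -0.16 to 0.11.

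Of the 6 members grouped under elongation, 0 rose and 2 fell, beside 13.8% of all probe sets higher and 11.4% lower. Both that fell are subunits of the complex that recharges eEF1A. EEF1G, its gamma subunit, had 2879.6, 3783 and 3007 in MB30, 3239, 3757 and 2958 in MB60, and 3262, 3102 and 3207 in MB180. In saline it had 4969, 4264 and 4123 in SAL30, 4049, 4494 and 4055 in SAL60, and 3854, 3968 and 3954 in SAL180. As with EIF4G1, every MB array lay below every SAL array, though the nearest, 3783 and 3854, were close.

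EEF1G fell by 0.37 (SE 0.07, adjusted p = 0.000316), and no single array left out raised the adjusted p above 0.00107. EEF1D, the delta subunit, was 648 to 1014 with a median of 732 in MB and 744 to 1566 with a median of 1085 in SAL. It fell by 0.52 (95% interval -0.76 to -0.28, adjusted p = 0.00196), with MB30 replicate 3 and SAL30 replicate 3 as the arrays that overlapped most. EEF1B2, the remaining subunit of that complex, averaged 5675 ± 603 in MB and 5957 ± 453 in SAL (SD, n = 9 each), a difference of -0.07 with a 95% interval of -0.22 to 0.07.

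EEF1A1, which delivers charged tRNAs to the ribosome, averaged 12265 ± 2042 in MB and 11197 ± 1132 in SAL (SD, n = 9 each), a difference of 0.12 with a 95% interval of -0.06 to 0.30. Another probe set of EEF1A1, at 77.7 intensity units on average, fell by 0.77 (SE 0.13, adjusted p = 0.000189). EEF1E1 differed by 0.20 (adjusted p = 0.0689) and EEF1AKMT1 by -0.14 (adjusted p = 0.259). In the group of start codon selection, 0 of 6 members passed by the probe sets used, beside 25.2% of all probe sets.

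Within that group EIF1, the guardian of start codon fidelity, was 4087 to 5966 with a median of 4929 in MB and 3940 to 5300.2 with a median of 4342 in SAL, a difference of 0.18 (SE 0.09, adjusted p = 0.126). Its second probe set passed, at 0.38 (SE 0.07, adjusted p = 0.000321). EIF1B, its close relative, differed by 0.20 (adjusted p = 0.0503). EIF1AX, the X-linked eIF1A that works beside eIF1 in scanning, differed by -0.05 (adjusted p = 0.722), but another probe set of it rose by 0.31 (SE 0.07, adjusted p = 0.00242).

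EIF2A and EIF2D, which bring initiator tRNA to the ribosome without eIF2, differed by 0.09 and 0.11, neither called. A dimmer probe set of EIF2A rose by 0.91 (SE 0.19, adjusted p = 0.00109), the largest change of any probe set of the members in this comparison. For EIF1, EIF1AX, EIF2A and EEF1A1 the outcome thus rests on which probe set stands for the gene.

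Time by time fewer members passed. At 30 min 4 of 42 passed in MB30 against SAL30, beside 4.09% of all probe sets (2.4% higher and 1.69% lower): EIF4G1 fell by 0.46 (adjusted p = 0.0124), EEF1G by 0.47 (0.0217) and EIF5B by 0.78 (0.0295), and EIF2S1 rose as given above. The call of EIF4G1 ended without SAL30 replicate 1 (0.0562), that of EEF1G without SAL30 replicate 1 (0.104), MB30 replicate 1 (0.0931) or MB30 replicate 3 (0.079), and that of EIF5B without SAL30 replicate 2 (0.086) or MB30 replicate 1 (0.149). The count was 2 without SAL30 replicate 1, the array with the high microglial markers, without SAL30 replicate 2 or without MB30 replicate 3, and 1 without MB30 replicate 1. At 60 min 1 member passed, beside 1.52% of all probe sets (0.726% higher and 0.798% lower): EIF4G1 fell by 0.39 (adjusted p = 0.0461, limma), a call that 20 of the 30 arrays ended when left out (up to 0.176, without MB60 replicate 3).

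At 180 min 1 member passed, beside 1.9% of all probe sets (1.28% higher and 0.619% lower): EIF2B1 rose by 0.45 (adjusted p = 0.0466, limma), a call that 23 of the 30 arrays ended when left out (up to 0.217, without MB180 replicate 3). Median centring gave 0 members higher at each time and 5, 1 and 5 lower at 30, 60 and 180 min. It moved the share of higher calls among all probe sets to 33.8%, 36.9% and 25.3%, against 58.7%, 47.7% and 67.4% as deposited, and at 180 min it shifted the median of all probe sets by -0.145. The share of all probe sets called under median centring at each time is not given here, so these member counts have no background beside them.

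The interaction test asked whether the MB and SAL difference varied between 30, 60 and 180 min. It called 0 of 42 members beside 0% of all probe sets in limma, and 0 members and 483 probe sets had an unadjusted p under 0.05. Setting 180 min against 30 min over both arms, 0 of 42 members passed beside 2.03% of all probe sets (1.27% higher and 0.756% lower) in limma. An unadjusted p under 0.05 was found for 5 members (11.9%), beside 15% of all probe sets. The extremes were EIF4E2 at 0.27 and EIF4B at -0.25, leaving out EIF1AY.

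Some measures of the arrays themselves also differed between MB and SAL. The log2 ratio of the 3' to the 5' control probe sets of actin and GAPDH, which rises as RNA or its copies get shorter, was 1.01 to 1.72 in MB, 1.32 to 3.12 in SAL and 1.37 to 3.19 in the arrest groups. The MB and SAL means differed by -0.66 (exact permutation test within time, 8000 relabellings, two-sided p = 0.00175, adjusted over 4 measures 0.00233). The 5' control of eEF1A was 7585 to 12420 in MB and 3922 to 9484 in SAL, a log2 difference of 0.53 (exact permutation p = 0.0005, adjusted 0.002). The control probe sets of 28S ribosomal RNA were at 277.6 to 1083 in MB and 107.2 to 561.7 in SAL, a log2 difference of 1.5 (exact permutation p = 0.00125, adjusted 0.00233). The middle control of eEF1A, which is the probe set of the EEF1A1 member, did not pass (0.12, exact permutation p = 0.19, adjusted 0.19). The 18S ribosomal RNA control, which was not tested, was at 927.4 to 1588 in MB and 537.6 to 983.6 in SAL.

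With the 3'/5' ratio as a covariate in the fit, 7 of 42 members were called, 16.7% beside 9.51% of all probe sets, and all 7 were among the 16: EIF4G1 (-0.40, adjusted p = 0.000927), EEF1G (-0.32, 0.0101), EIF2S1 (0.19, 0.0369), EIF2B1, EIF3B, EIF3D and EIF5A. Of the 9 that no longer passed, EIF2AK2 (-0.71 with the covariate, -0.66 without), EIF4E2 (-0.34 and -0.36), EIF3K (-0.15 and -0.16) and EIF5B (-0.42 and -0.49, adjusted p = 0.0561 with it) kept differences of similar size. Those of EEF1D (-0.36 and -0.52), EIF2B3 (-0.24 and -0.39), EIF4G3 (-0.15 and -0.24), EIF4E (0.18 and 0.27) and EIF4A3 (0.14 and 0.20) were smaller with it. Without the 4 arrays whose log2 ratio exceeded 2.5 (CA20 replicates 2 and 3, SAL60 replicate 2 and SAL180 replicate 3) the count was 11 of 42, in a setting chosen after seeing the data. The summed intensity of 7 neuronal markers was 36840 to 61160 with a median of 45540 in MB and 36260 to 47120 with a median of 41200 in SAL. That of 5 astrocyte markers was 19590 to 33150 with a median of 23390 in MB and 24180 to 29760 with a median of 26670 in SAL. That of 4 oligodendrocyte markers had medians of 25100 in MB and 25210 in SAL, and that of 2 markers of meningeal fibroblasts was 365.3 to 505.0 in MB and 231.6 to 487.3 in SAL. The part of the ribosomal RNA signal and of these markers in the differences was not tested.

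**Figure D4:**
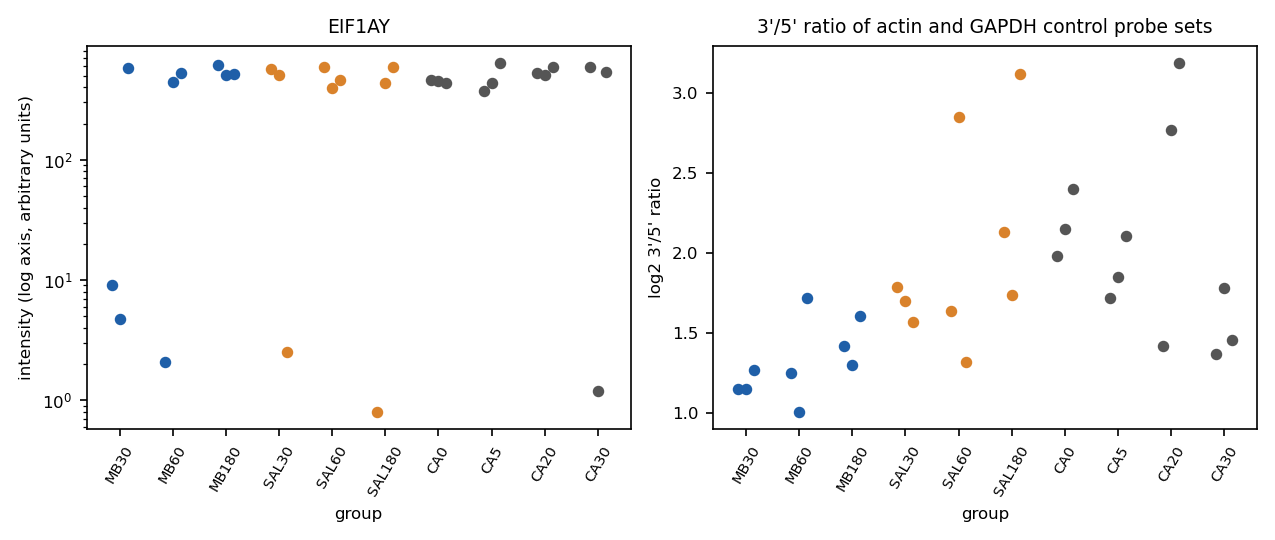
Left, intensity of EIF1AY on a log axis for each array (points) in the 10 groups. Right, the log2 3'/5' ratio of the actin and GAPDH control probe sets for the same arrays. EIF1AY lies between 0.804 and 9.03 on 6 arrays and between 376 and 638 on the other 24; the ratio is 1.01 to 1.72 on the MB arrays.

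EIF1AY, the counterpart of EIF1AX that the RefSeq table places on the Y chromosome, had 2 levels. It was 0.804 to 9.03 on 6 arrays (MB30 replicates 1 and 2, MB60 replicate 1, SAL30 replicate 3, SAL180 replicate 1 and CA30 replicate 2) and 376 to 638 on the other 24. No array lay between these ranges. The labels say that both sexes were used and do not give the sex of each animal. EIF1AY was not called in any comparison, its mean MB minus SAL difference of -0.41 having a 95% interval of -2.16 to 1.34, and it is left out of the ranges given for the other 41 members.

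During arrest without resuscitation the transcripts of the factors did not change detectably. In CA5 against CA0, 0 of 42 members passed beside 0% of all probe sets in limma. An unadjusted p under 0.05 was found for 0 members, beside 1.89% of all probe sets. In CA20 against CA0, 0 passed beside 0.0119% of all probe sets (0.0119% higher and 0% lower), again with 0 at an unadjusted p under 0.05 (beside 4.24%). In CA30 against CA0, 0 passed beside 0.0119% of all probe sets (0.0119% higher and 0% lower), and 2 (4.76%) had an unadjusted p under 0.05 (beside 4.06%).

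The differences of the 41 members other than EIF1AY ran from -0.22 (EIF4A1) to 0.19 (EIF4E) at 5 min, from -0.25 (EIF4E2) to 0.28 (EIF2AK2) at 20 min, and from -0.39 (EIF5B) to 0.31 (EEF1E1) at 30 min. All 41 had 95% intervals within 1 log2 unit of 0 at each of the 3 times, and 34, 34 and 31 had them within 0.5. Smaller changes are thus not excluded for every member. EIF4G1 was 955, 898 and 961 in CA0, 884, 905 and 903 in CA5, 883, 886 and 1001 in CA20, and 898, 932 and 877 in CA30. EIF5B at 30 min, with 148, 167 and 151, lay below the 178, 230.4 and 222 of CA0 on every array, and did not pass.

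After resuscitation with saline, 0 members passed against the control at any time. SAL30 against CA0 called 0 of 42 members beside 0.196% of all probe sets (0.185% higher and 0.0119% lower) in limma. An unadjusted p under 0.05 was found for 0 members, beside 7.38% of all probe sets. SAL60 against CA0 called 0 beside 0.315% (0.274% higher and 0.0417% lower), with 1 member (2.38%) at an unadjusted p under 0.05 (beside 6.3%). SAL180 against CA0 called 0 beside 0.875% (0.619% higher and 0.256% lower), with 0 members at an unadjusted p under 0.05 (beside 8.73%). These comparisons share the CA0 arrays with those of the arrest and the MB groups, so the same control arrays enter all of them. Of 41 members, 40, 40 and 41 had 95% intervals within 1 log2 unit of 0 in SAL30, SAL60 and SAL180. The exception in SAL30 and SAL60 was EIF2AK2, at 0.54 (-0.18 to 1.26) and 0.39 (-0.33 to 1.11), and the widest difference in SAL180 was -0.39 for EIF5B. Within 0.5 of 0 lay the intervals of 33, 31 and 33 members, so smaller changes are not excluded for every member.

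Among genes that act on translation from outside the family, PPP1R15A and DDIT3 passed in saline. Of 48 listed genes that control translation outside the family, 25 were tested. Of these, 1, 1 and 2 passed in SAL30, SAL60 and SAL180 against CA0, all higher, beside 0.196%, 0.315% and 0.875% of all probe sets. The list was chosen with earlier results of these data known, so its contrast with the members is no separate support. PPP1R15A, the stress-induced subunit that directs a phosphatase to eIF2 and so restores initiation, had 254, 315 and 319 in SAL30, 229.6, 162 and 242 in SAL60, and 194, 285 and 204 in SAL180, against 89.6, 84.2 and 86.6 in CA0. All 9 saline arrays lay above all 12 arrest arrays, which ran from 66.1 to 132. PPP1R15A rose by 1.60 (SE 0.24, adjusted p = 0.000423), 1.13 (adjusted p = 0.0304) and 1.23 (adjusted p = 0.00639) at the 3 times.

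DDIT3, a transcription factor of the same stress response, rose by 1.07 in SAL180 (SE 0.15, adjusted p = 9.07e-05). With the dye, PPP1R15A had 349, 415 and 217 in MB30, 248, 347 and 288 in MB60, and 294, 243 and 172 in MB180, a mean difference from saline of 0.20 that did not pass (adjusted p = 0.301). The MB and SAL arrays of PPP1R15A overlapped. DDIT3 was higher in MB than in SAL by 0.33 (SE 0.08, adjusted p = 0.00572), and did not pass with the 3'/5' ratio of the control probe sets as a covariate (0.25, adjusted p = 0.109).

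Against the control, members of the MB groups passed at each time. MB30 against CA0 called 7 of 42 (1 higher, 6 lower) beside 12.2% of all probe sets (7.58% higher, 4.59% lower). MB60 called 4 (1 higher, 3 lower) beside 12.5% (7.05% higher, 5.49% lower), and MB180 called 5 (1 higher, 4 lower) beside 9.4% (5.7% higher, 3.71% lower). These shares of members, 16.7%, 9.52% and 11.9%, are near those of all probe sets. EIF4G1 and EIF2B1 passed at all 3 times: EIF4G1 fell by 0.46, 0.47 and 0.42, and EIF2B1 rose by 0.37, 0.39 and 0.50.

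EIF3B and EIF5B also fell at 30 and 60 min, EIF5B by 1.01 in MB30 (SE 0.20, adjusted p = 0.00269) and by 0.76 in MB60 (adjusted p = 0.0149). EIF3D and EEF1G fell at 30 and 180 min, EIF4E2 at 30 min and EIF4G3 at 180 min. The call of EIF3B in MB60 (adjusted p = 0.0447, limma) was ended by 14 of the 30 arrays. That of EIF4G3 in MB180 (0.0455) was ended by 12. Leaving out 1 array ended the call of EEF1G for 4 arrays in MB30 and 4 in MB180, and of EIF3D for 1 and 4. It did so for EIF5B with 3 arrays in MB60 and for EIF3B with 1 in MB30. The count in MB30 was 3 without MB30 replicate 3. In MB60 it was 2 without CA0 replicate 1 and 1 without CA0 replicate 2, CA0 replicate 3 or MB60 replicate 3. In MB180 it was 2 without CA0 replicate 2, CA0 replicate 3 or MB180 replicate 2, and 1 without MB180 replicate 3. Leaving out 1 array did not end the call of EIF4G1 in MB30 or MB60, and in MB180 only leaving out MB180 replicate 3 did (adjusted p = 0.0541). The call of EIF2B1 was ended by 9 of the 30 arrays in MB30 (adjusted p up to 0.116, without CA0 replicate 2), by 5 in MB60 (up to 0.0965, without MB60 replicate 3) and by 1 in MB180 (0.0756, without MB180 replicate 3). Median centring shifted the median difference of all probe sets by -0.183, -0.135 and -0.17 in these 3 comparisons. It gave 0 members higher and 11, 12 and 10 lower, and 26%, 30.8% and 24.8% of all calls higher, against 62.3%, 56.2% and 60.6% as deposited. The share of all probe sets called under median centring is not given here, so these counts are no result about the members.

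The 6 reperfused groups as one were set against the 4 arrest groups. Of 42 members 9 passed, 2 higher and 7 lower, which is 21.4% beside 17.6% of all probe sets (10.4% higher and 7.25% lower). EIF1 and EIF2B1 rose, and EIF4G1, EIF5B, EIF3D, EIF3B, EIF2B3, EIF4E2 and EIF4G3 fell. EIF1, the member with the largest rise, was 4087 to 5966 with a median of 4929 in MB and 3940 to 5300.2 with a median of 4342 in SAL, against 3141 to 4524 with a median of 3866 in the arrest groups.

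EIF1 rose by 0.28 (SE 0.07, adjusted p = 0.00637), and its second probe set by 0.33 (SE 0.05, adjusted p = 0.000132). The arrays of EIF1 overlapped between reperfused and arrest groups, CA0 replicate 1 at 3141 being the lowest of all. Single arrays did not end the calls of EIF1, EIF4G1, EIF5B, EIF3D and EIF3B. The call of EIF2B1 was ended by 20 of the 30 arrays (adjusted p up to 0.0744), of EIF4E2 by 22 (up to 0.105), of EIF4G3 by 20 (up to 0.107) and of EIF2B3 by 7 (up to 0.0746). The count was 5 without CA20 replicate 3, SAL60 replicate 3 or SAL180 replicate 1. Under median centring 1 member was higher and 16 lower, and 27.2% of all calls were higher, against 58.9% as deposited. The share of all probe sets called in that setting is not given here, so this count has no background beside it.

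The reperfused groups were then divided by infusion, a comparison chosen after seeing the data. The 3 MB groups against the arrest groups called 23 of 42 members, 9 higher and 14 lower, beside 36.3% of all probe sets (20.2% higher and 16.1% lower). The 3 SAL groups against the same arrest groups called 0 of 42 beside 1.5% (1.16% higher and 0.339% lower) in limma, with 2 members (EIF1 and EIF2D) at an unadjusted p under 0.05. EIF4G1 differed from the arrest groups by -0.42 (SE 0.05) in MB and by -0.01 (95% interval -0.12 to 0.10) in SAL. EIF2B1 differed by 0.31 (SE 0.06) in MB and by 0.00 (-0.13 to 0.13) in SAL, and EIF5B by -0.66 (SE 0.11) in MB and -0.17 (-0.40 to 0.06) in SAL. The test of the difference between the infusions is the MB against SAL comparison above, in which these 3 passed.

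EIF1 differed from the arrest groups by 0.36 (SE 0.08, adjusted p = 0.00101) in MB and by 0.19 (SE 0.08, adjusted p = 0.397) in SAL, and its MB against SAL difference did not pass. Among the 10 groups as a whole, 7 of 42 members differed by the overall F test (16.7%, beside 15.3% of all probe sets). These were EIF4G1, EIF5B, EEF1G, EIF3D, EIF2B1, EIF4E2 and EIF4G3, with EIF4G1 at the smallest adjusted p (0.00082, limma).

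Other parts of the translation machinery were read from lists of their own in MB against SAL. Among the 25 tested genes that control translation from outside the family, 4 rose (PAIP1, DDIT3, PABPN1 and RHEB) and 2 fell (FMR1 and RPS6), which is 24% beside 25.2% of all probe sets, with a list median of 0.09 beside 0.02. Under median centring 2 were higher and 3 lower (20% beside 28.9% of all probe sets). FMR1, an mRNA-binding repressor of translation in neurons, fell by 0.41 (SE 0.06, adjusted p = 4.96e-05), and PAIP1, which bridges the poly(A)-binding protein to the cap complex, rose by 0.40 (SE 0.08, adjusted p = 0.000675). Of 56 tested cytosolic ribosomal proteins 1 rose, RPL15 (0.34, adjusted p = 0.00554), and 13 fell, which is 25% beside 25.2% of all probe sets, with a list median of -0.09. Median centring gave 1 higher and 21 lower (39.3% beside 28.9%), and the 3'/5' ratio as a covariate gave 0 higher and 2 lower (3.57% beside 9.51%) with a list median of 0.03. RPS9 fell by 0.42 (SE 0.06, adjusted p = 6.76e-05) and RPS19 by 0.31 (SE 0.07, adjusted p = 0.00292). With the covariate RPS9 still passed (adjusted p = 0.00342), and RPS19 (0.102) and RPL15 (0.101) did not.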

How the data were processed

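RNA of 30 cortex samples was hybridised to Affymetrix porcine arrays. The authors deposited linear intensity per probe set, made with GCOS per the submitters' processing notes, whose version and signal algorithm are not given in the sources used. All arrays had been scaled alike: their mean intensity, trimmed of 2% at each end, lay between 300.05 and 300.06. Of 24123 probe sets, 123 controls were left out; the EEF1A1 control was kept as a member. Of 42 members, 41 matched the RefSeq gene table by gene ID with the same symbol. Another 6 probe sets listed an EIF or EEF symbol together with others and were not used.

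Tests were run on log2(intensity + 16) of the deposited values. Probe sets under the 30th percentile of mean log2 value (intensity 29.5) were left out, leaving 16800. All comparisons came from limma 3.58.1 (R 4.3.3), in 1 fit with 10 group means, 20 residual degrees of freedom and eBayes with an intensity trend, at an adjusted p of 0.05. Intervals are 95%. On simulated data of 16800 probe sets, the MB against SAL mean recovered 49% of 100 changes of 0.5 log2 units and 94% of 100 changes of 1, with 10 false calls. Only those changed probe sets differed there, under independent noise, whereas 25.2% of all probe sets were called in the data. The adjusted p thus cuts at another level, and the recovery does not describe the real comparison. The members and lists were chosen with earlier results of these data known. The members named are those called in any comparison, those of largest and smallest difference (the extremes are given) and a fixed set, and from each other list up to 4 called genes per comparison. No sequences or coordinates were used. The number of arrays limits the precision. Alternatives are listed in the closing section.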

Additional observations from a re-analysis of the deposited data

How the results depend on the processing

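No called log2 difference of a member, by the probe set used, changed direction in 12 other settings or with any of the 30 arrays left out. Over the 47 calls of a gene in a comparison, 466 re-tests in other settings kept the call and 98 did not, and 1208 with 1 array left out kept it and 202 did not. The cause was not tested. The counts below are given without the share of all probe sets called in that setting and describe the processing only. Counts of called members moved by over 1.5 times as follows. With median centring the count was 5 in MB180 against SAL180, 11, 12 and 10 in MB30, MB60 and MB180 against CA0, and 17 in reperfused against arrest groups. With a fit to the compared groups alone, which has fewer arrays, it was 0 in MB30, MB60 and MB180 against SAL, 1 in MB60 against CA0 and 0 in MB180 against CA0. With the 3'/5' ratio as a covariate it was 7 in the MB against SAL mean, 2, 0 and 0 in its 30, 60 and 180 min comparisons, 1 and 3 in MB60 and MB180 against CA0, and 1 in the overall F test. Without the 4 arrays of highest ratio it was 0 in MB60 and in MB180 against saline, and 4 in the F test. With array weights it was 4 in MB180 against SAL180, 8 in MB180 against CA0 and 11 in the F test. No filter, quantile normalization and no intensity trend gave 0 in MB60 and in MB180 against saline, and the pseudocount of 64 and the 50th percentile filter gave 2 in MB180 against SAL180. Counting a gene if any of its probe sets passed gave 2 in MB60 and 2 in MB180 against saline, 8 in MB60 against CA0 and 12 in the F test. Reperfused against arrest gave 0 for saline groups alone and 23 for methylene blue groups alone.

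Replicate numbers did not pair the samples: over 135 pairs with the same number the median correlation of deviations was -0.0034 and 28 exceeded 0.1, and over 270 pairs with other numbers the median was -0.011. With the number as a replicate block the count was 18 in the MB against SAL mean, 0 in MB60 and 0 in MB180 against saline. With 1 array left out the counts ranged from 1 to 5 in MB30 against SAL30, 0 to 1 in MB60 against SAL60, 0 to 3 in MB180 against SAL180, 13 to 18 in their mean, 3 to 8, 1 to 6 and 1 to 6 in MB30, MB60 and MB180 against CA0, 5 to 11 in reperfused against arrest and 5 to 8 in the F test, and 0 to 0 in each remaining comparison.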

Other observations

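Mitochondria translate their own mRNAs with a separate set of factors, of which 6 of 9 listed genes were tested. In MB against SAL over the 3 times, 3 rose and 0 fell, 50% beside 25.2% of all probe sets (13.8% higher), with a list median of 0.22 beside 0.02. These calls did not hold under other settings: quantile normalization gave 1, and median centring and the 3'/5' ratio as a covariate gave 0 each, with list medians of 0.22, 0.12 and 0.16. MTRF1 and MTRF1L, which release the finished peptide from the mitochondrial ribosome, rose by 0.47 (SE 0.16, adjusted p = 0.0299, limma) and 0.29 (SE 0.10, adjusted p = 0.0459). TSFM, which recharges the mitochondrial elongation factor Tu, rose by 0.17 (SE 0.06, adjusted p = 0.0478). In reperfused against arrest groups 0 of the 6 passed in limma, beside 17.6% of all probe sets, and 0 had an unadjusted p under 0.05 (beside 31.5%).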
